A study of Mus musculus with 26 samples.

Results

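The genes described here are 10 markers of germ-cell identity and of pluripotency, matched by gene identifier and symbol: Ddx4, Dazl, Pou5f1, Sox2, Nanog, Dppa3, Kit, Tfap2c, Prdm1 and Utf1. They are 10 of the 57186 genes counted in the table of all deletions and of the 31053 genes counted in the Meis1 table, and all 10 passed the filter on low counts in both. RNA was sequenced from mouse XY gonads at embryonic day E13.5, dissected away from the mesonephros. There were 3 wild-type (WT) samples, 4 deletion alleles named for Fgf9 with 3 (Δ306), 6 (Δ225), 4 (Δ104) and 6 (Δ93) samples, and 4 Meis1 knockout (Meis1 KO) samples. All 6 groups are labelled XY and E13.5. The labels give neither the deleted sequence, nor the strain, nor whether each sample was 1 animal or a pool, and p-values therefore measure the spread between these samples.

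Germ cells make up a minority of the fetal gonad, and the surrounding somatic cells steer them. After they arrive they keep a pluripotency network (Pou5f1, Sox2, Nanog, with Dppa3 and Utf1) that is later switched off, either as they enter meiosis in an ovary or as they arrest in a testis. Ddx4, an RNA helicase, and Dazl, an RNA-binding protein, mark germ cells in both sexes. Prdm1 and Tfap2c are transcription factors of germ-cell specification, and Kit is the receptor for the growth factor encoded by Kitl. FGF9 is a Sertoli-cell signal of testis development and MEIS1 a homeobox transcription factor.

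Upstream sequences are shown for 1 gene from each of the 3 sets that varied together across libraries. Windows of 250 bases before the annotated start came from RefSeq (GRCm38.p6), which held 11 windows for 8 of the 10 genes. Both strands were searched for the octamer ATGCAAAT, the SOX core CATTGT, the E-box CACGTG and the E2F core TCCCGC, and capitals mark matches. The first window is that of Ddx4 (chr13:112652311-112652560, minus strand), the second that of Nanog (chr6:122707239-122707488, plus strand) and the last that of Kit (chr5:75574737-75574986, plus strand).
Ddx4: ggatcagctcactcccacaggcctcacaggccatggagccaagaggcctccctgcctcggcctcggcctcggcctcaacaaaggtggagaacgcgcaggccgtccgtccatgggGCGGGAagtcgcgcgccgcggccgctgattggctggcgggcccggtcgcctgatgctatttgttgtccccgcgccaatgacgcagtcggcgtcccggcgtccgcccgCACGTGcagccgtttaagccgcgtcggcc
Nanog: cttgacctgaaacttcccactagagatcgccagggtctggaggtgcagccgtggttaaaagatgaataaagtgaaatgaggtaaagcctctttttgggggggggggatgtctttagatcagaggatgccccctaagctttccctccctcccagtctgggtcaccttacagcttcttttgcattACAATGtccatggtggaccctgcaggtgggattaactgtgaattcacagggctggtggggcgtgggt
Kit: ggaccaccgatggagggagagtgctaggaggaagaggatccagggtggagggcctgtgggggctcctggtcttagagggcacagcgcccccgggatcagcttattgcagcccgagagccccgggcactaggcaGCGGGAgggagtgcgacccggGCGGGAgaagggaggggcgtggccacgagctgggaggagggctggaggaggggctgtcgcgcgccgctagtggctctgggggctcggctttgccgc
The Ddx4 window held 1 E-box and 1 E2F core, the Nanog window 1 SOX core, and the Kit window 2 E2F cores. Of 32817 windows of this length, 6.02% held the E-box, 16.9% the E2F core, 10.7% the SOX core and 1.6% the octamer. No window of a member held the octamer, and those of Dazl, Sox2, Prdm1 and Utf1 held none of these letters. A match is a description of the letters, and binding was not measured.

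Libraries held 11582619 to 53392393 counts in the table of all deletions and 35468633 to 51732897 in the Meis1 table. Levels are given as CPM, counts scaled to the TMM-adjusted library total. Fgf9 was at 9.21 to 9.85 CPM in WT, 2.17 to 2.94 in Δ306, 2.30 to 4.75 in Δ93, 2.72 to 6.98 in Δ104 and 3.69 to 16.5 in Δ225, with Δ225 replicate 3 above all WT libraries. Meis1 was at 62.1 to 109 CPM in WT and at 0.201 to 0.695 CPM in Meis1 KO. The summed CPM of 4 Y-linked genes was under 0.1 times that of the lowest WT library in 7 libraries labelled XY (Δ306 replicate 3, Δ104 replicate 3, Δ93 replicates 3 to 6 and Δ225 replicate 4). This sum was 31.2 to 77.2 CPM in WT, and every other deletion library except Δ104 replicate 4 (36.2 CPM) was also below WT. In the Meis1 table it was 33.3 to 81.6 CPM in WT and 3.67 to 15.8 CPM in Meis1 KO. Xist was at most 6.42 CPM in every library.

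WT replicate 1 stood apart before any comparison. Its Ddx4 level was 4.27 CPM, against 81.3 and 139 in WT replicates 2 and 3, and its Dazl level was 4.30 CPM, against 188 and 284. The mesonephric markers Pax2 and Wnt9b were at 7.06 and 7.28 CPM there and at most 1.45 and 0.923 CPM in the other WT libraries, while another such marker, Lhx1, was lowest there, at 4.77 CPM. Kit and Prdm1 dropped less than the other members, to 34.9 and 9.37 CPM. The same 3 WT libraries serve every comparison with WT, so results are given with and without this library. The processing notes give the version of the alignment program only for WT and Δ306. Whether the other groups form a separate batch from WT was not tested. The part of the mesonephric RNA in them was not tested.

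**Figure D1:**
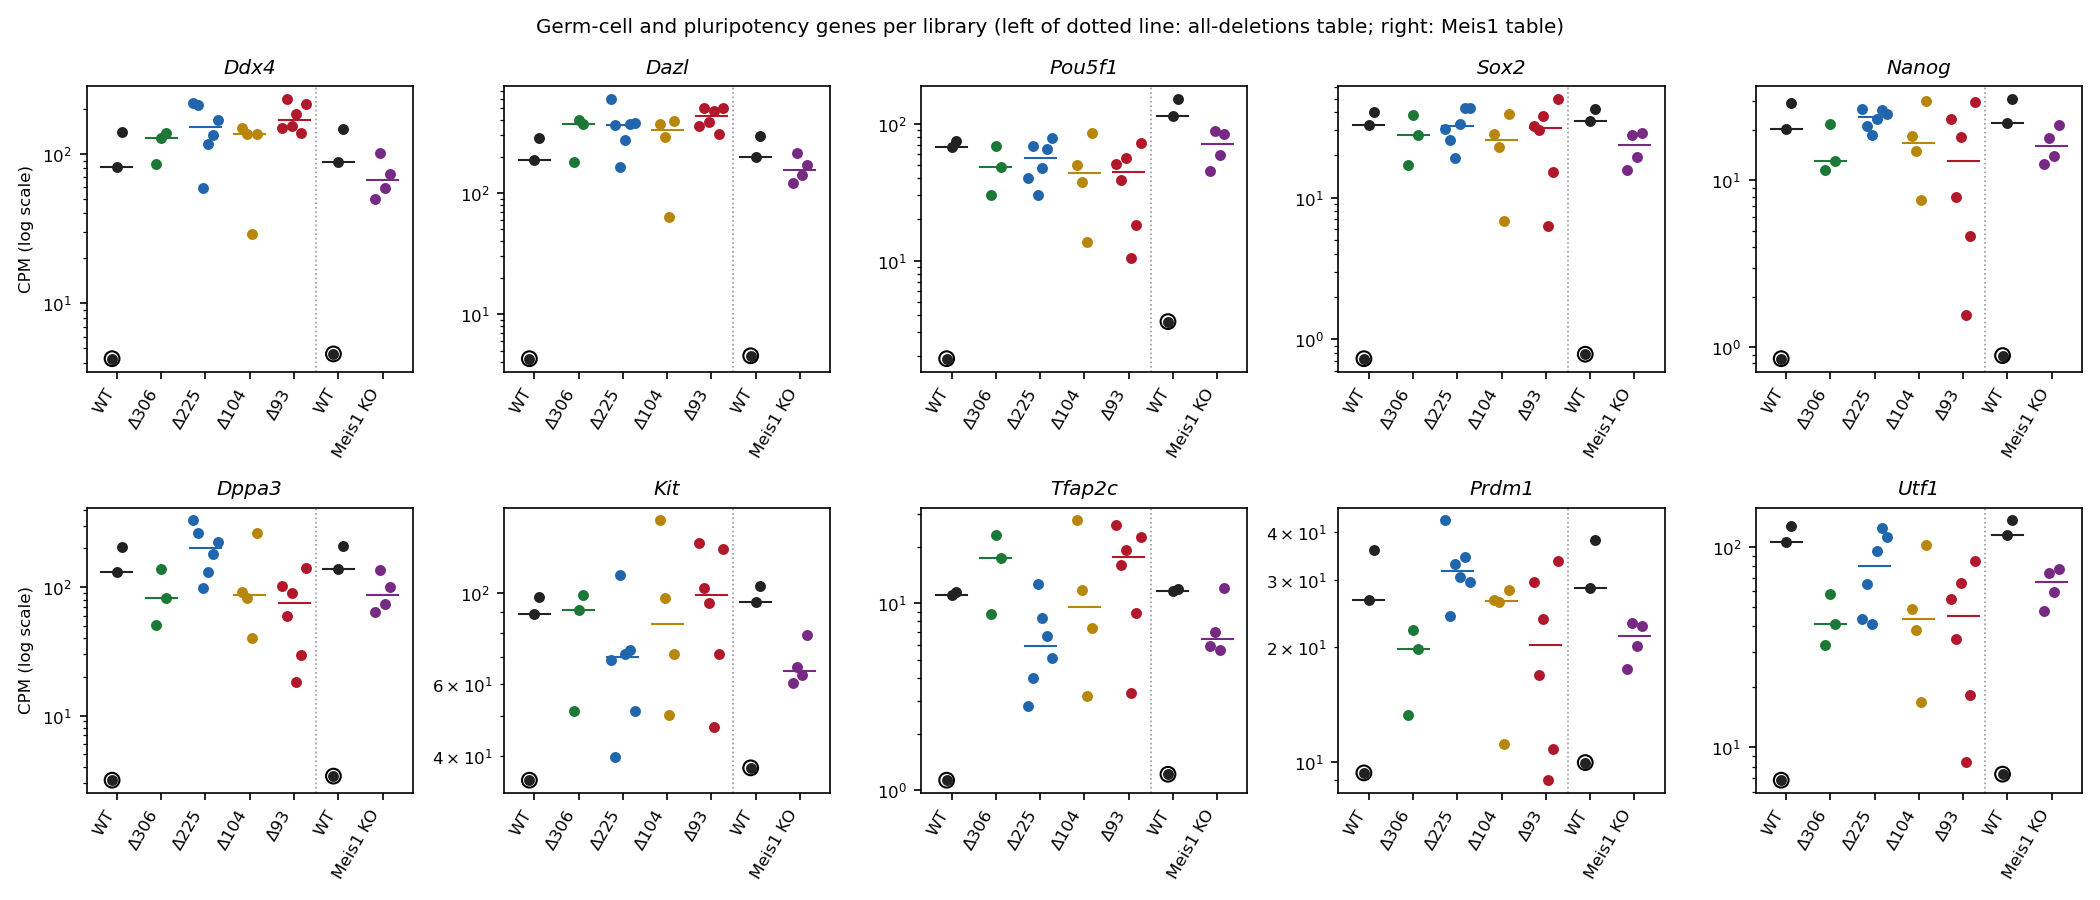
CPM (log axis) of each gene in every library, by group; points are libraries, lines are group medians and the ring marks WT replicate 1. WT replicate 1 is the lowest library of the table of all deletions for every gene except Prdm1. Among the deletion groups Δ93 spreads furthest for Nanog, from 1.57 to 29.5 CPM.

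Ddx4 and Dazl were read as germ-cell content, and in every deletion library except Δ104 replicate 3 and Δ225 replicate 3 Ddx4 was above WT replicate 2. Ddx4 was at 84.9, 126 and 137 CPM in Δ306 and at 148, 136, 29.2 and 135 CPM in Δ104 replicates 1 to 4. In Δ225 it ran from 59.0 to 220 CPM (median 151) and in Δ93 from 136 to 232 CPM (median 169). The ranges of all 4 deletion groups overlapped. Dazl was at 179, 403 and 370 CPM in Δ306, from 62.9 to 395 CPM in Δ104, 164 to 596 CPM in Δ225 (median 366) and 305 to 503 CPM in Δ93 (median 430). In bulk RNA, fewer germ cells and less RNA per germ cell cannot be told apart. In edgeR's quasi-likelihood test the Δ93 minus WT difference was 1.25 ± 0.63 (log2, SE) for Ddx4 and 1.41 ± 0.71 for Dazl, with Benjamini-Hochberg adjusted p of 0.198 and 0.197. Without WT replicate 1 the differences were 0.70 ± 0.48 and 0.84 ± 0.51, also not called.

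Among the deletions, the mean log2 CPM of the pluripotency genes varied most within Δ93, with an SD of 1.22. The SD was 1.03 in Δ104, 0.556 in Δ306 and 0.398 in Δ225. In WT it was 2.91, with replicate 1 far below the others. Pou5f1, a POU-domain factor of the pluripotency core, was at 1.91, 67.8 and 75.5 CPM in WT and at 50.5, 39.0, 56.8, 10.3, 18.1 and 72.8 CPM in Δ93 replicates 1 to 6. Nanog, a homeobox factor of the same core, was at 0.854, 20.4 and 29.0 CPM in WT and at 23.2, 7.90, 18.2, 1.57, 4.64 and 29.5 CPM in Δ93. Thus Δ93 replicates 4 and 5 were low for both genes, replicate 2 was low for Nanog, and replicate 6 was as high as WT. Low libraries were not particular to Δ93. In Δ104 Nanog ran from 7.67 to 29.8 CPM (median 16.8), so its lowest library was below Δ93 replicate 2. Pou5f1 in Δ104 had a median of 43.6 CPM and reached 85.7 CPM, and its lowest library was below Δ93 replicate 5. In Δ225 Nanog stayed within 18.8 to 26.9 CPM (median 24.0), and in Δ306 it was at 11.5, 21.7 and 13.1 CPM. Sox2, the partner of Pou5f1, was at 0.729, 32.7 and 40.1 CPM in WT and from 6.29 to 49.6 CPM in Δ93 (median 31.0). It was at 16.9 to 38.3 CPM in Δ306, 6.8 to 39 CPM in Δ104 (median 25.3) and 19.2 to 43.1 CPM in Δ225.

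Dppa3, a maternal factor that protects methylation marks, and Utf1, a chromatin-bound pluripotency factor, followed the core. Dppa3 was at 3.14, 130 and 203 CPM in WT, from 18.4 to 141 CPM in Δ93 (median 74.9) and from 98.0 to 330 CPM in Δ225 (median 202). The Δ93 and Δ225 ranges overlapped for Dppa3. Utf1 was at 6.86, 105 and 127 CPM in WT, at 32.3, 57.8 and 41.1 CPM in Δ306, from 8.44 to 84.6 CPM in Δ93 (median 44.9) and from 41.3 to 124 CPM in Δ225 (median 80.2). In Δ104 Utf1 ran from 16.9 to 101 CPM. All 3 Δ306, all 4 Δ104 and all 6 Δ93 libraries were below WT replicates 2 and 3 for Utf1, and above WT replicate 1. How many of all genes show the same order was not computed.

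Kit and Tfap2c followed another order, and Prdm1 stayed with the pluripotency genes. Tfap2c was at 1.13, 11.03 and 11.5 CPM in WT, from 2.83 to 12.8 CPM in Δ225 (median 5.90) and from 3.32 to 26.3 CPM in Δ93 (median 17.7). Kit was at 34.9, 88.9 and 98.1 CPM in WT, from 39.7 to 111 CPM in Δ225 (median 69.9) and from 47.1 to 132 CPM in Δ93 (median 99.0). Prdm1 was at 9.37, 26.5 and 35.9 CPM in WT, from 24.1 to 42.8 CPM in Δ225 (median 31.6) and from 8.97 to 33.7 CPM in Δ93 (median 20.3). The Δ225 and Δ93 ranges overlapped for all 3 genes. Per kilobase of annotated exon, mean levels in Δ225 ran from 229 CPM for Dppa3 through 93.6 for Dazl, 65.4 for Utf1, 50.1 for Ddx4, 24.6 for Pou5f1, 15.8 for Sox2 and 10.5 for Nanog to 7.75 for Kit, 5.80 for Prdm1 and 1.80 for Tfap2c.

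The members were grouped into 3 sets by correlation over the 22 libraries of the table of all deletions. The sets are described without a test because libraries share depth and cell makeup. Ddx4 and Dazl correlated at r = 0.986 in log2 CPM, and at 0.959 without WT replicate 1. Pou5f1 and Sox2 correlated at 0.976 and 0.945, Nanog and Dppa3 at 0.946 and 0.905, and Nanog and Prdm1 at 0.894 and 0.904. Kit and Tfap2c correlated at 0.896 and 0.871. Between sets r ran from 0.368 (Dppa3 and Kit) to 0.855 (Dazl and Sox2) with all libraries and from -0.019 (Dppa3 and Tfap2c) to 0.509 (Dazl and Sox2) without WT replicate 1. Within sets the lowest r was 0.768 (Sox2 and Prdm1) with all libraries and 0.779 (Pou5f1 and Prdm1) without WT replicate 1. The sets therefore stood apart only without that library.

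**Figure D2:**
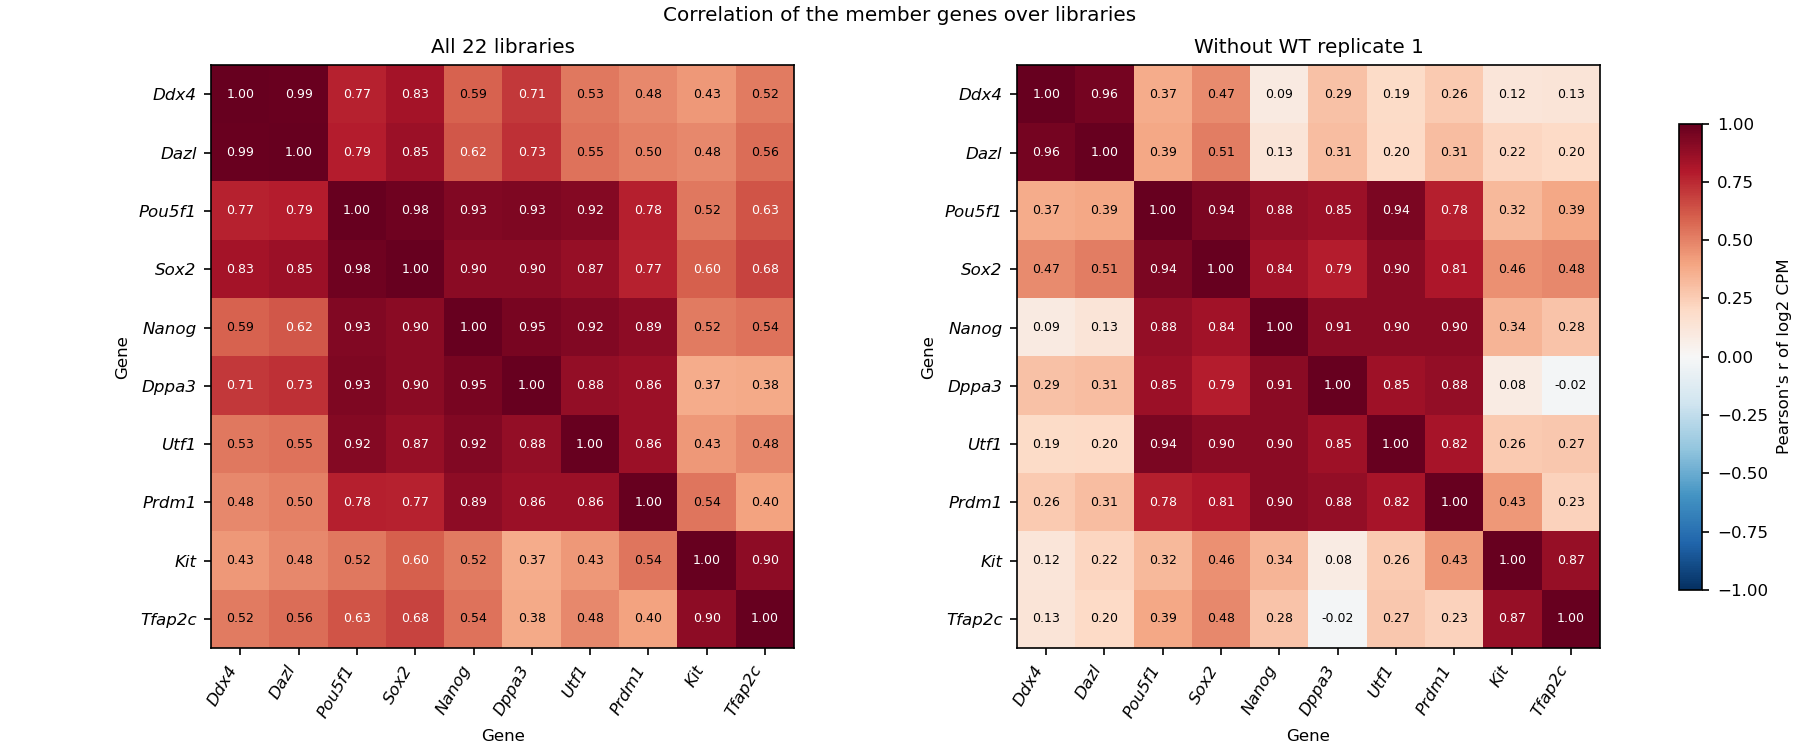
Pearson's r of log2 CPM for each pair of genes, over all 22 libraries (left) and without WT replicate 1 (right). Without that library Ddx4 and Dazl (0.96) separate from Pou5f1, Sox2, Nanog, Dppa3, Utf1 and Prdm1, and Kit pairs with Tfap2c (0.87).

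The genes most like each member were listed by r over the same 22 libraries, among 16152 others with a mean of at least 1 CPM. For Ddx4 they were Tex14 (0.994), Dazl and Stk31 (0.977). Among those most like Pou5f1 were Sox2 and Foxr1 (0.97), and Nanog was most like Ap3b2 (0.973), Liph (0.962) and Krt222 (0.955). The closest to Dppa3 was Dppa4 (0.969), to Utf1 Tcl1 (0.973), to Prdm1 Nr5a2 (0.953), and to both Kit (0.901) and Tfap2c (0.966) Plcg2.

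The level of the pluripotency genes beside germ-cell content was then described as the mean log2 CPM of Pou5f1, Sox2, Nanog, Dppa3 and Utf1 minus the mean of Ddx4 and Dazl. It was -1.12, -1.11 and -1.42 in WT replicates 1 to 3, so WT replicate 1 had both sets of genes low together. It was -2.30, -2.06 and -2.65 in Δ306 and -2.52, -2.57, -1.64 and -1.59 in Δ104 replicates 1 to 4. In Δ225 it ran from -2.73 to -1.54 (median -1.75), and in Δ93 from -5.40 to -2.31 (median -2.97). All 19 deletion libraries lay below the 3 WT libraries on this mean. Gene by gene this held for Pou5f1 and Utf1, 2 of the 5, while Sox2, Nanog and Dppa3 overlapped WT. The measure is lower wherever Ddx4 and Dazl are higher, and how many of all genes lie below WT on it was not computed. These counts are therefore a description and not a result particular to these genes. For Dppa3 minus the Ddx4 and Dazl mean, WT ran from -0.44 to 0.07 and Δ225 from -0.45 to 0. With content read from 9 other germ-cell genes, WT was at 0.907, 1.93 and 2.00, and 5 deletion libraries (Δ104 replicates 3 and 4, Δ225 replicates 3 to 5) lay above WT replicate 1. Beside Ddx4 and Dazl, the lowest libraries were Δ93 replicate 4 (-5.40), replicate 5 (-3.78) and replicate 2 (-3.57), and the Δ306 and Δ93 ranges overlapped.

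**Figure D3:**
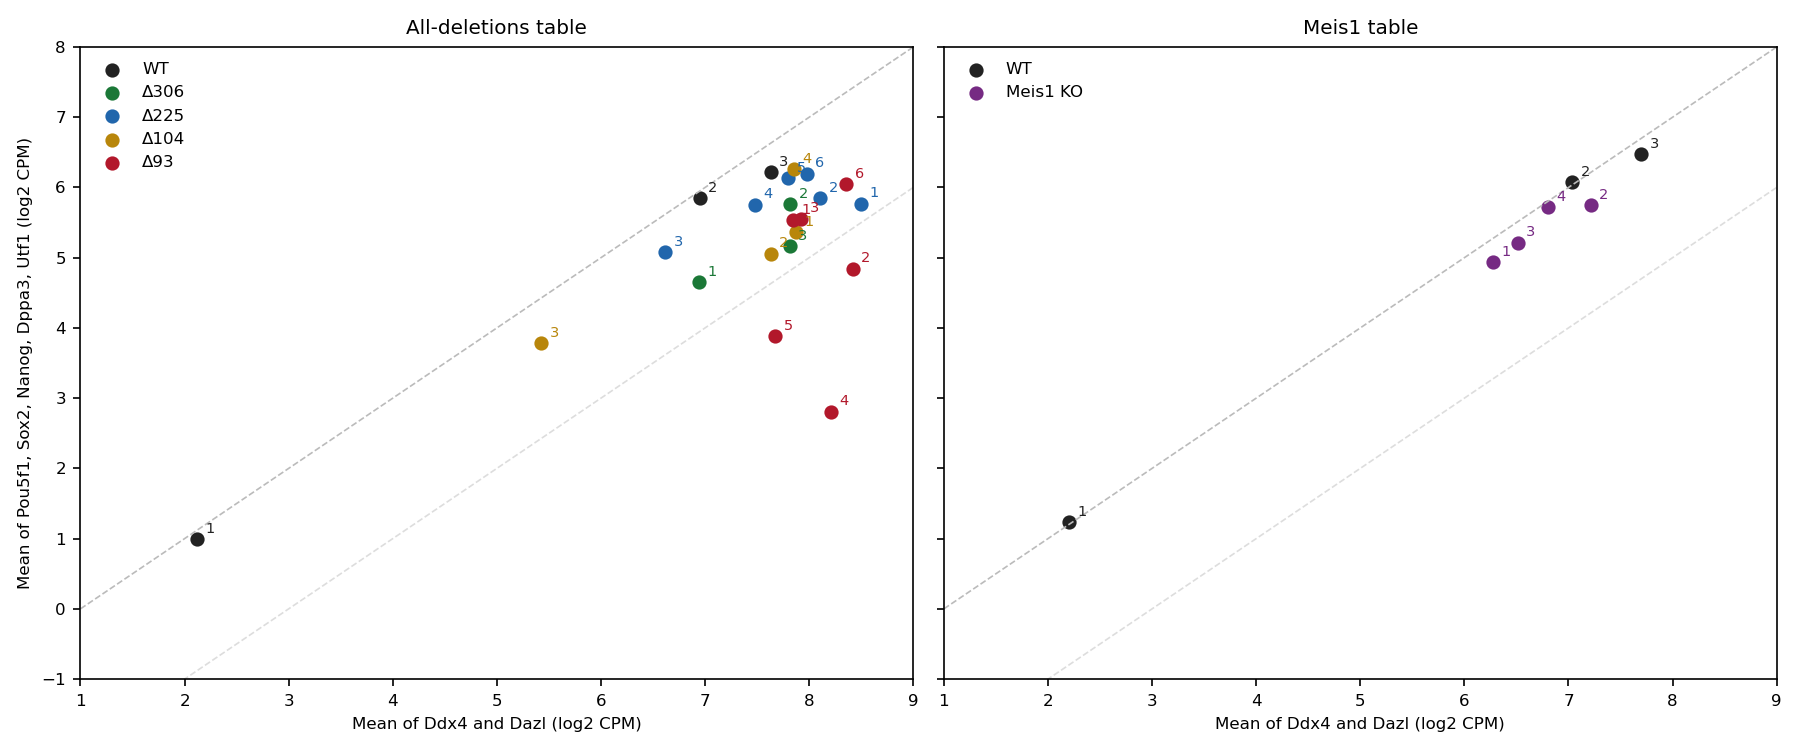
Mean log2 CPM of the 5 pluripotency genes against the mean of Ddx4 and Dazl, 1 numbered point per library; dashed lines are offsets of -1 and -3. WT and Meis1 KO libraries lie near the upper line, and Δ93 replicates 2, 4 and 5 lie below the lower one. Δ225 replicates 3 to 6 and Δ104 replicates 3 and 4 also lie nearer the upper line than the lower one.

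Meiotic genes are set beside this measure as a description. Stra8, a retinoic-acid target of meiotic entry, was at 0, 0.777 and 0.132 CPM in WT, 27.1, 64.5 and 95.9 CPM in Δ306 and 49.3, 220, 69.0, 324, 128 and 81.9 CPM in Δ93 replicates 1 to 6. Δ93 replicates 2, 4 and 5 had both the highest Stra8 and the lowest relative pluripotency level. Replicates 4 and 5 are among the 7 libraries low in Y-linked genes, with summed Y-linked levels of 0.0265 and 0.2 CPM. Replicate 2, at 3.96 CPM, was also below the lowest WT library (31.2 CPM). Replicate 4 had the highest Xist (6.42 CPM). Of 8 meiotic genes, 7 rose in Δ93 against WT (14.1% of all genes called) and 3 in Δ306 (6.43%), and 4 and 1 without WT replicate 1. Stra8 itself rose by 8.78 ± 1.80 (log2, edgeR adjusted p = 0.00342) in Δ93, and by 8.25 ± 2.11 (0.0263) without that library. Of 5 pregranulosa (fetal ovarian supporting cell) markers, 5 were called higher in both Δ93 and Δ306 against WT, and 5 and 4 without that library. Their summed level ran from 49.9 to 96.9 CPM in WT, 341 to 680 in Δ306, 58.8 to 646 in Δ104, 56.2 to 97.3 in Δ225 and 404 to 1021 in Δ93. The summed level of the meiotic genes ran from 11.6 to 113 CPM in WT, 209 to 472 in Δ306, 39.4 to 465 in Δ104, 55.8 to 521 in Δ225 and 367 to 2030 in Δ93. Without the 7 libraries low in Y-linked genes, which leaves 2 Δ93 libraries, 0 meiotic and 0 pregranulosa genes were called in Δ93 or Δ306 against WT, where 9 and 25 of 22735 genes were called. Stra8 in Δ93 minus WT was then 8.63 ± 1.93 (edgeR adjusted p = 0.0563). The same fit called 3 of 8 meiotic and 5 of 5 pregranulosa genes lower in Δ225 than in Δ93. The ranges of the meiotic sum in Δ225, Δ306 and Δ93 overlapped, and the part of these markers, or of the libraries low in Y-linked genes, in the pluripotency values was not tested.

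**Figure D4:**
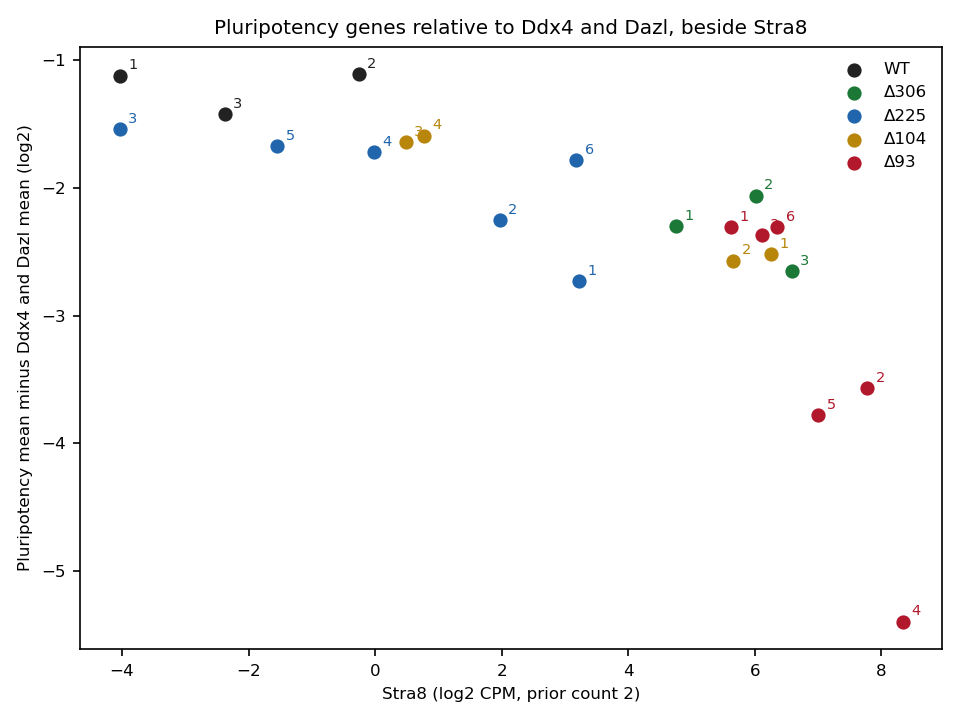
Pluripotency mean minus Ddx4 and Dazl mean (log2) against Stra8 (log2 CPM; libraries at 0 counts sit at the left edge), 1 numbered point per library. Δ93 replicates 2, 4 and 5 combine the highest Stra8 with values of -3.57, -5.40 and -3.78.

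No member was called in the 11 comparisons by edgeR at an adjusted p under 0.05, and DESeq2 called 0 as well. At an unadjusted p under 0.05 edgeR gave 2 members (Dppa3 and Tfap2c) for Δ225 against Δ93 and 0 in the other 10 comparisons. Of all genes tested, edgeR called 6.43% in Δ306, 0.209% in Δ225, 0.061% in Δ104 and 14.1% in Δ93 against WT. Between deletions it called 20.8% for Δ225 against Δ93, 13.2% for Δ225 against Δ306, 0.645% for Δ225 against Δ104, 0.0785% for Δ93 against Δ306, 0.0523% for Δ93 against Δ104 and 0.0654% for Δ104 against Δ306. In the order of group levels of each gene, no neighbours therefore differed beyond the test's threshold. Without WT replicate 1, 0 members were called against WT in Δ306 (2.25% of all genes called), Δ225 (0.0589%), Δ104 (0.00421%) and Δ93 (6.25%), where 1 member had an unadjusted p under 0.05 in Δ93 and 0 in the other 3.

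Dppa3 had the largest fold change of any member between 2 deletions. Its Δ225 minus Δ93 difference was 1.47 ± 0.63 (log2, edgeR adjusted p = 0.103), and that of Tfap2c was -1.27 ± 0.56 (adjusted p = 0.11). Without WT replicate 1 Dppa3 was called at 1.47 ± 0.47 (adjusted p = 0.0338), against 19.6% of all genes. Tfap2c stayed uncalled, at an adjusted p of 0.073. DESeq2 gave Dppa3 an adjusted p of 0.0801, and without the 7 libraries low in Y-linked genes edgeR gave 0.531.

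A further fit rescaled each library by its germ-cell content, as the mean of 9 other germ-cell genes, so that fold changes are relative to it. The median of all genes for Δ93 against WT was -3.82 (log2) in it and 0.06 under TMM scaling, and it called 72.3% of all genes in Δ306, 81.9% in Δ225, 48% in Δ104 and 88.5% in Δ93 against WT. In Δ93, 6 of 10 members were called lower (Pou5f1, Nanog, Dppa3, Kit, Prdm1 and Utf1), a share below that background. In Δ306 2 were (Kit and Prdm1), in Δ225 1 (Kit) and in Δ104 0, with 0 at an unadjusted p under 0.05 in Δ104.

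Without WT replicate 1 this fit called 2 of 10 members lower in Δ93 than in WT, against 3.58% of all genes. Utf1 was lower by 2.65 ± 0.73 (log2, edgeR adjusted p = 0.0326) and Dppa3 by 2.43 ± 0.70 (adjusted p = 0.0409). Pou5f1, at -2.09 ± 0.68, and Nanog, at -2.01 ± 0.77, had adjusted p of 0.067 and 0.101. It called 0 members in Δ306 (0% of all genes; 1 member at an unadjusted p under 0.05), Δ225 (0.00842%) and Δ104 (0%), with 0 at an unadjusted p under 0.05 in the last 2. With content read from Ddx4 and Dazl instead, no member was called in Δ93 against WT without that library. Taf7l, 1 of the 9 content genes, itself rose by 6.31 ± 1.55 in Δ93 (adjusted p = 0.0102; 0.0601 without WT replicate 1), so the scale moves with it.

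Between deletions the rescaled fit called 0 members in all 6 comparisons. Background was 3.6% for Δ225 against Δ93, 0.27% for Δ225 against Δ306, 0.113% for Δ225 against Δ104, 0.0741% for Δ93 against Δ306, 5.64% for Δ93 against Δ104 and 0% for Δ104 against Δ306. At an unadjusted p under 0.05 it gave 4 members for Δ225 against Δ93, 1 for Δ93 against Δ104 and 0 elsewhere. Without WT replicate 1 it called Dppa3 higher in Δ225 than in Δ93 by 1.99 ± 0.56 (adjusted p = 0.0229; 7.36% of all genes). It also called Dppa3 lower in Δ93 than in Δ104, at -1.66 ± 0.60 (adjusted p = 0.0296), where 52.6% of all genes were called.

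In the Meis1 KO gonads 5 members were lower than in WT once WT replicate 1 was left out, and none was called with it. In that table Pou5f1 was at 3.57, 114 and 152 CPM in WT and at 45.0, 88.2, 59.2 and 84.4 CPM in Meis1 KO. Utf1 was at 7.35, 114 and 135 CPM in WT and at 47.9, 73.8, 59.3 and 77.6 CPM in Meis1 KO. For both genes every Meis1 KO library lay between WT replicate 1 and the other WT libraries. With all libraries 0 of 10 members were called by edgeR or by DESeq2, 0 had an unadjusted p under 0.05, and 1.8% of all genes were called.

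Without WT replicate 1, 5 of 10 members were called lower in Meis1 KO, against 12.9% of all genes. Pou5f1 fell by 0.94 ± 0.23 (log2, edgeR adjusted p = 0.0334), Utf1 by 0.94 ± 0.17 (0.0137) and Sox2 by 0.76 ± 0.21 (0.0478). Prdm1 fell by 0.67 ± 0.14 (0.0201) and Kit by 0.56 ± 0.10 (0.015). Ddx4 and Dazl, at -0.72 ± 0.27 and -0.60 ± 0.22, were not called (0.107 and 0.0987), although Kit fell less than either. The log2 fold changes of all 10 members ran from -0.945 to -0.564, and all 10 had an unadjusted p under 0.05 in edgeR. That comparison rests on 2 WT libraries. Relative to germ-cell content 0 members were called with all libraries (0.0476% of all genes) or without WT replicate 1 (11.4%), with 0 at an unadjusted p under 0.05 in each.

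The pluripotency mean minus the Ddx4 and Dazl mean was -0.97, -0.96 and -1.22 in WT and -1.34, -1.47, -1.30 and -1.08 in Meis1 KO replicates 1 to 4, and the groups overlapped. Levels are not compared across the 2 tables: the same WT libraries gave 1.03 to 1.08 times the CPM in the Meis1 table for 9 members and 1.69 to 2.02 times for Pou5f1. Pou5f1, Nanog and Dppa3 have near-identical pseudogene copies, so their counts are uncertain.

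**Figure D5:**
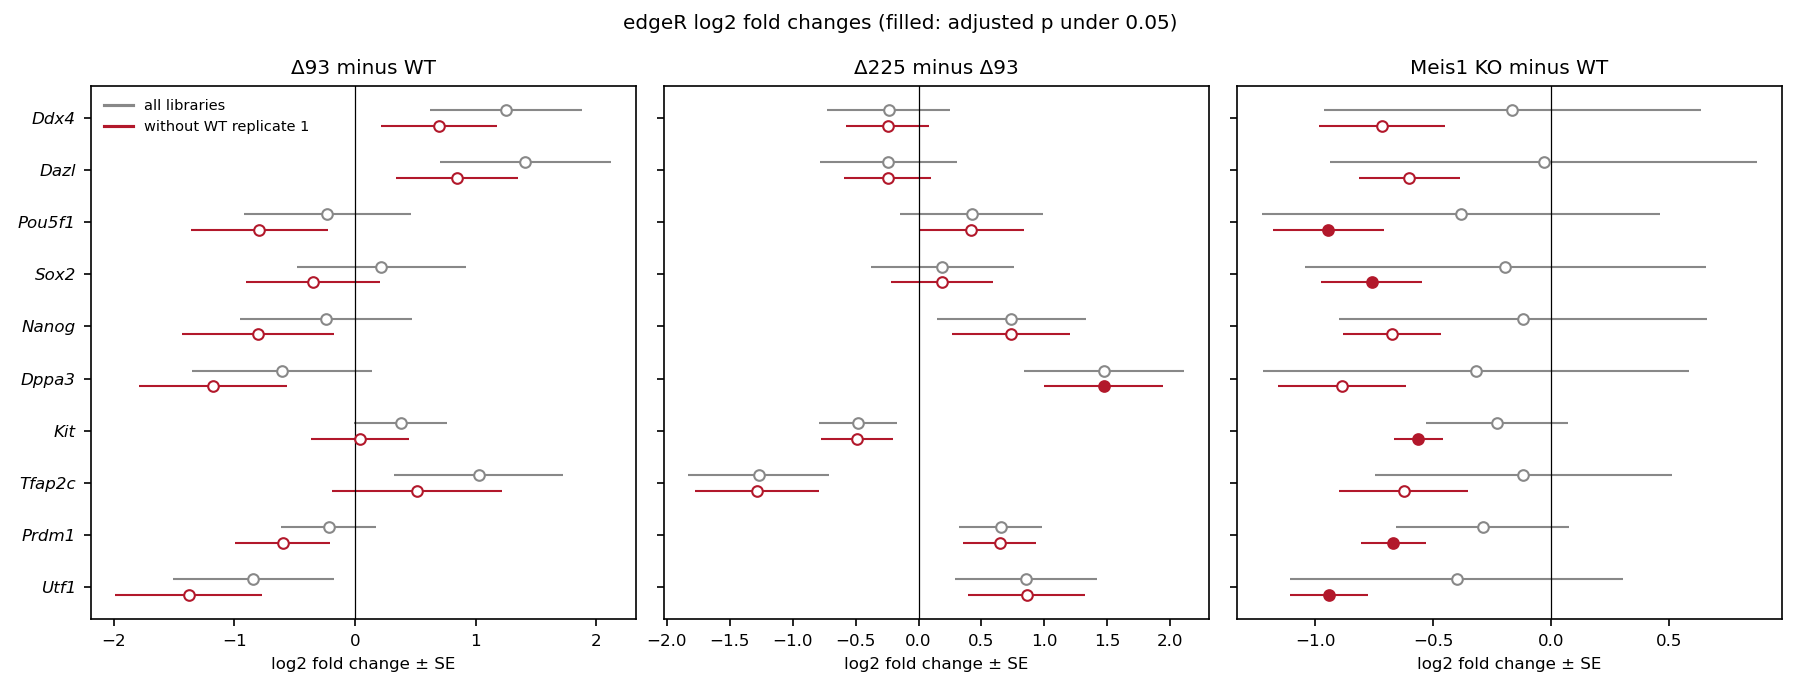
edgeR log2 fold change ± SE of each gene for 3 comparisons, with all libraries (grey) and without WT replicate 1 (red); filled points have an adjusted p under 0.05. Dppa3 in Δ225 minus Δ93 and 5 genes in Meis1 KO minus WT are filled only without WT replicate 1.

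Among 25 further genes listed for pluripotency and early germ cells, Kitl, which encodes the KIT ligand, had the lowest adjusted p in Δ93 and in Δ306 against WT. Bulk RNA does not show which cells of the gonad held the Kitl transcripts. Kitl was at 184 to 208 CPM in WT, 441 to 575 in Δ306, 447 to 836 in Δ93 (median 571), 172 to 612 in Δ104 and 146 to 240 in Δ225 (median 189), so the Δ306 and Δ93 groups did not overlap WT. It rose by 1.62 ± 0.29 (log2, edgeR adjusted p = 0.00163) in Δ93, and by 1.61 ± 0.36 (0.0149) without WT replicate 1. In Δ306 it rose by 1.39 ± 0.32 (0.0147), a call lost without that library (1.35 ± 0.38, 0.0644). Both calls were lost without the 7 libraries low in Y-linked genes, at 1.54 ± 0.38 (edgeR adjusted p = 0.0608) in Δ93 and 1.25 ± 0.38 (0.159) in Δ306. In Δ93 against WT 1 of the 25 rose and 1 fell, the fallen gene being the reprogramming factor Klf4 with all libraries (-1.01 ± 0.31) and Tdgf1, a NODAL co-receptor gene, without WT replicate 1 (-3.60 ± 1.05, 0.0453). For Δ225 against Δ93, 3 of 25 were higher, Tdgf1 (2.93 ± 0.97, edgeR adjusted p = 0.0368), the germ-cell survival gene Nanos3 (1.52 ± 0.49) and Klf4 (0.74 ± 0.26), and 2 were lower, Kitl (-1.68 ± 0.23) and Fut4 (-1.20 ± 0.24). Klf4 was no longer called without WT replicate 1, where 4 genes were higher (Tdgf1, Nanos3, Dppa4 and Cdh1) and 2 lower. With all libraries the shares of the list called were not above those of all genes, 14.1% for Δ93 against WT and 20.8% for Δ225 against Δ93. Without WT replicate 1, 1 of 25 was higher and 1 lower in Δ93 than in WT, where 6.25% of all genes were called. For Δ225 against Δ93, 4 of 25 were higher and 2 lower, where 19.6% of all genes were called. These counts are near the shares of all genes and are not read as an excess. Without the libraries low in Y-linked genes Kitl and Fut4 were called lower in Δ225 than in Δ93 and 0 genes of the list higher. Among 5 tested male germ-cell genes, Nanos2, Lefty2 and Nodal were higher in Δ225 than in Δ93, Nanos2, a male germ-cell RNA-binding factor, by 7.32 ± 1.54 (adjusted p = 0.00153), with 0 counts in 4 of 6 Δ93 libraries; 0 of 6 tested were called without the libraries low in Y-linked genes. In Meis1 KO 0 of 24 tested genes of the list of 25 were called with all libraries and 12 were lower without WT replicate 1 (12.9% of all genes called), among them Dppa4 (-1.22 ± 0.23, edgeR adjusted p = 0.0168), Zfp42 (-1.06 ± 0.19) and Cdh1 (-1.06 ± 0.14).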

How the data were processed

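Poly(A) RNA libraries (NEBNext Ultra II Directional) were aligned to mm10 with STAR (2.7.10a for WT and Δ306) and, for those, counted with featureCounts, per the submitters' processing notes; the deposited count tables hold whole-number reads per gene, with library totals in the report. No per-sample column was left unused. CPM values, log2 CPM (prior count 2) and tests were computed here with edgeR 4.0.16 (TMM, filterByExpr, quasi-likelihood test, Benjamini-Hochberg over 22941 or 16791 genes, called under 0.05), 1 fit per table; DESeq2 1.42.0 was an alternative. Library sizes were also multiplied by a germ-cell index over 9 other germ-cell genes. Columns of the first table were taken as Δ306 from the series' design text and used only as an alternative. The members and gene lists were chosen with earlier results of these data known; all members were named in each comparison, and up to 3 called genes per list and direction. Gene spans and exon lengths came from GENCODE M21 (GRCm38). The tests were tested on simulated data. Alternatives covered normalization, filter, replicate block, samples in the fit and left-out libraries. The index as a covariate, the other gene lists without WT replicate 1 or without the libraries low in Y-linked genes, and the deletion comparisons without WT replicate 1 were chosen after seeing the data. One gene among those most like a member is not reported here.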

Additional observations from a re-analysis of the deposited data

Results flagged for a closer look

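In 44 groups of 4 to 6 libraries examined for a single distant library, 2 held one. This number is not above chance, which gives about 1 in 20. Both were Δ104 replicate 3: Ddx4 was at 29.2 CPM there, with the next lowest library of the group at 135 CPM, and Prdm1 was at 11.2 CPM, with the next at 26.3 CPM. That library is also among the 7 low in Y-linked genes.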

How the results depend on the processing

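Under TMM scaling, 2077 of 2090 values of single genes under the alternatives kept their side of the threshold, though 233 uncalled values changed sign. No member was called in the main fits, so none could lose a call. A further 12 values became called, and 1 turned and was called: Dazl in Meis1 KO against WT, called at 0.413 with the germ-cell index as a covariate. Members called for Δ225 against Δ93 went from 0 to 1 (Dppa3) in a fit of only those groups, without WT replicate 1, without WT replicate 1 and Δ104 replicate 3, and with the index as a covariate with all or with 2 WT libraries. For Meis1 KO against WT the covariate gave 3, and leaving out single libraries gave 0 to 5. Relative to germ-cell content, 53 of 1540 values lost a call, 19 gained one and 80 uncalled values changed sign. Leaving out single libraries gave 0 to 2 members for Δ306, 0 to 3 for Δ225, 0 to 2 for Δ104 and 2 to 6 for Δ93 against WT, and 0 to 1 for Δ225 against Δ93 and for Δ93 against Δ104. Fitting only 2 groups gave 0 for Δ306 and Δ225 against WT, 3 for Δ225 against Δ93 and 1 for Δ93 against Δ104; an index over Ddx4 and Dazl gave 2 for Δ225 and 2 for Δ104 against WT, and with 2 WT libraries 0 for Δ306, Δ225 and Δ93 against WT and 1 for Δ225 against Δ93 and for Δ93 against Δ104. Without the 7 libraries low in Y-linked genes 0 were called in Δ306, Δ225 and Δ93 against WT; this leaves 2 Δ93 libraries. The cause of these changes was not tested.

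Replicate numbers were not taken as pairs in the main fits. Of 35 same-numbered pairs of the table of all deletions, 9 correlated over 0.1 in deviations from the group mean. Their median r was 0.017, against 0.0013 for other pairs. Of 3 such pairs with Meis1 KO, 2 did, with a median r of 0.33 against -0.19. So few pairs cannot decide whether those samples were paired. With the replicate block, members called relative to germ-cell content went to 0 for Δ306 and for Δ225 against WT, and no other count of members changed by over 1.5 times.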
